A study of Homo sapiens with 22 samples.

Results

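The labelled mRNAs of 10 genes of the cell cycle were followed, namely 8 cyclins (*CCND1*, *CCND3*, *CCNE1*, *CCNE2*, *CCNA2*, *CCNB1*, *CCNB2* and *CCNF*) and the mitotic regulators *CDC20* and *PLK1*. They were chosen by symbol, and each gene was represented by its protein-coding transcript with the highest mean count over the chase of 0-10 h. They are 10 of 19570 genes with a protein-coding row, and 9 of the 10 passed the filter for testing (a mean of 1 CPM or more over the chase, where CPM is the count scaled to the library size). *CCND1* did not pass and is given by its values.

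The mRNAs were measured by BRIC-Seq, in which newly made RNA is labelled with bromouridine (BrU), recovered with an antibody and followed after the label is removed. The HEK293T cells used, a line from human embryonic kidney, carried either a control hairpin (shControl) or one against *ZNF598* (shZNF598), whose product attaches ubiquitin to ribosomes that have collided on an mRNA. Both received 150 µM BrU for 24 h and were then chased without it for 0, 2, 4, 6 or 10 h (2 libraries per hairpin and time) or 24 h (1 library per hairpin). The comparison asks whether loss of ZNF598 changes mRNA levels and decay. The labels do not say whether replicate libraries came from separate cultures, or whether each hairpin line was clonal, so p-values measure the spread between these libraries, which may be technical.

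Cyclins are the regulatory subunits of cyclin-dependent kinases (CDKs), and their periodic synthesis and destruction order the phases of the cell cycle. D-type cyclins act in G1, E-type cyclins at the entry into S phase, cyclin A2 in S and G2, and B-type cyclins in mitosis. Cyclin F differs in that it is the substrate receptor of an SCF ubiquitin ligase, while CDC20 activates the anaphase-promoting complex (APC/C) and PLK1 is a kinase of mitotic entry and spindle assembly. Several of their mRNAs are known to be unstable through elements in the 3′ UTR.

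Short stretches of 3′ UTR are shown because they hold the letters of known regulatory elements in *CCNE1*, *CCND1*, *CCND3*, *CCNF*, *CCNB1* and *CCNB2*. The searched elements, read on the mRNA strand, were the seed match of the miR-15/16 family (TGCTGCT), that of let-7 (CTACCTC), an AU-rich core (TATTTAT) and the Pumilio element (TGTANATA). Capitals mark the element, with 10 bases on either side, written 5′ to 3′ in DNA letters from GENCODE release 44 (GRCh38). The miRNAs themselves are given from RefSeq with bases 2 to 8, the seed, in capitals.
hsa-miR-16-5p: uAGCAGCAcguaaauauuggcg
hsa-miR-15a-5p: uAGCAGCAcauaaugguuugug
CCNE1, first seed match, chr19:29824014-29824040, plus strand: gtgctcccgaTGCTGCTatggaaggtg
CCNE1, second seed match, chr19:29824252-29824278, plus strand: gttttgtaagTGCTGCTatatctatcc
CCND1, seed match, chr11:69653305-69653331, plus strand: tcacattgttTGCTGCTattggaggat
CCND3, seed match, chr6:41935310-41935336, minus strand: ttgacagcttTGCTGCTgaaggctcat
CCNF, seed match, chr16:2458590-2458616, plus strand: ctcactgagcTGCTGCTtttatgtgtg
CCNB1, Pumilio element, chr5:69177680-69177707, plus strand: atgtgccatcTGTACATAttactgttgc
CCNB2, Pumilio element, chr15:59124937-59124964, plus strand: ctcttgatttTGTACATAgtcctctggt
CCND1, AU-rich core, chr11:69652695-69652721, plus strand: ctaaaaagtaTATTTATtgcagaggat

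miR-15a and miR-16 share the seed that pairs with TGCTGCT. That match was found in 4 of the 10 members, against 26.1% of 10660 genes with a tested 3′ UTR. *CCNE1* held it at 2 places in a 3′ UTR of 535 bases, and 10.7% of genes with a 3′ UTR of like length (within 20%) hold at least 1. Both B-type cyclins held the Pumilio letters with the same central base, *CCNB2* in a 3′ UTR of only 168 bases, where 3.73% of genes of like length hold them. For *CCNB1* the share of like length was 16.2%. For the miR-15/16 match it was 38.8% for *CCND1*, 19.3% for *CCND3* and 25.99% for *CCNF*, and for the AU-rich core of *CCND1* it was 57.8%. *CCNE2* held 3 AU-rich cores (41.2% of genes of like length hold at least 1) and 2 Pumilio elements (34.5%) in 1862 bases, and *CCNF* held 1 let-7 match as well (11.2%). The AU-rich core was found in 2 of the 10 members, against 37.4% of the genes, the Pumilio element in 3, against 31.7%, and the let-7 match in 1, against 11.8%. None of the 4 elements was found in *CCNA2*, *PLK1* or *CDC20*, whose 3′ UTR in this transcript has 74 bases. A match is a description of the letters, and neither miRNAs nor Pumilio proteins were measured here.

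Total counts were 52352359 to 96963584 in the 20 libraries of 0-10 h. The targeted transcript, *ZNF598*, was at 7.63 CPM at 0 h in shControl against 0.902 CPM in shZNF598, a log2 difference of -3.05 averaged over the chase (SE 0.087, adjusted p = 1.17e-18, edgeR quasi-likelihood test). Of the markers of the line, VIM had a median of 121 CPM and KRT8 and KRT18 had about 12.0 CPM each, while PAX2 was nearly absent at 0.0354 CPM. The blood, liver and pancreas markers PTPRC, CD3E, ALB and INS had a median of 0. The shControl 0 h libraries stood apart from each other more than any other replicate pair (chi-square per degree of freedom 18.8, against 2.31 to 12.6 in the others). In bulk libraries like these, a different share of cells in one phase and a different amount of mRNA per cell cannot be told apart.

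Levels are given in CPM after TMM scaling, which sets the bulk of every library to the same level, so that a falling value means a fall relative to the bulk and no absolute half-life. Per kilobase of transcript, *CCNB1* was the most abundant member at 0 h in shControl with 24.9 CPM per kb, followed by *CCNA2* with 16.2, *CDC20* with 14.2 and *CCNB2* with 11.8. *PLK1* had 8.23, *CCND3* 6.19, *CCNF* 6.11, *CCNE1* 3.41 and *CCNE2* 2.86 CPM per kb. *CCND1* was lowest with 0.117. Times at which the libraries of the hairpins did not overlap are described below for each member. Except for *CCNA2*, no share of all transcripts is given for such times, so they are description only.

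**Figure D1:**
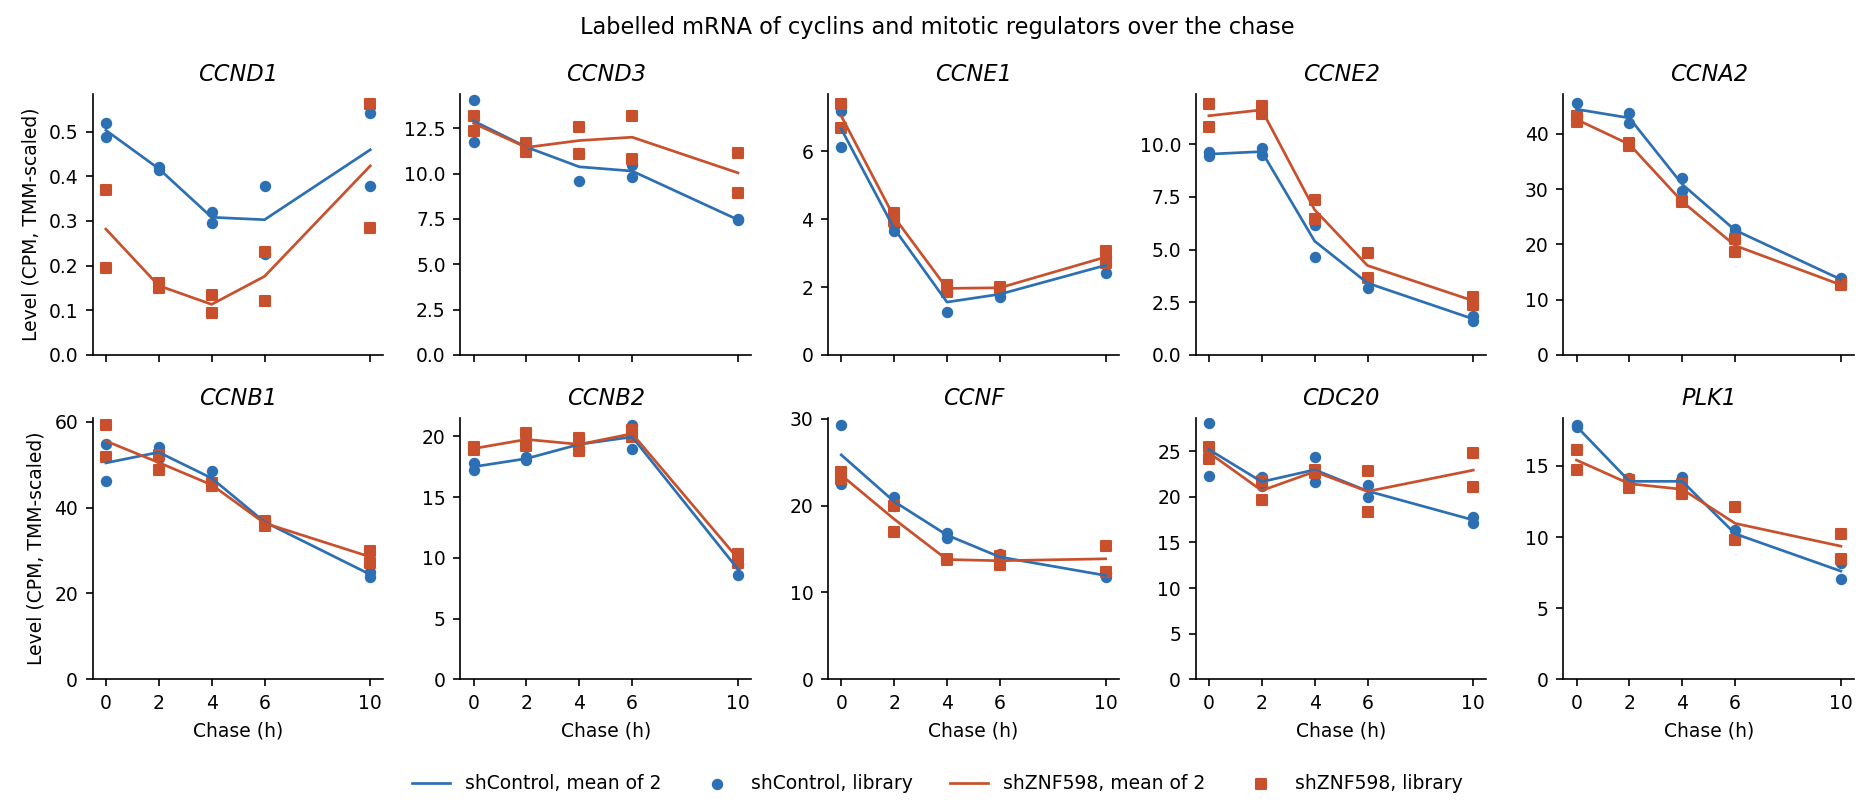
Level of each member (CPM after TMM scaling) against hours of chase, with a point for each library and a line through the mean of the 2 libraries per hairpin and time. *CCNE1* falls early and turns up at 10 h, *CCNB2* stays level to 6 h and then drops, and *CCNE2* lies higher in shZNF598 at most times.

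*CCND1* (ENST00000227507.2, chr11:69641156-69654474, plus strand), a G1 cyclin that activates CDK4 and CDK6, was near the limit of detection, with 7 to 39 counts per library of 0-10 h. In shControl its replicate levels were 0.487 and 0.518 CPM at 0 h, 0.414 and 0.42 at 2 h, 0.296 and 0.32 at 4 h, 0.226 and 0.379 at 6 h, and 0.541 and 0.377 at 10 h. In shZNF598 they were 0.37 and 0.194, 0.161 and 0.15, 0.133 and 0.0931, 0.122 and 0.23, and 0.285 and 0.562 at the same times. Both shZNF598 libraries were thus below both shControl libraries at 0, 2 and 4 h, and the hairpins overlapped at 6 and 10 h. In the fit without a filter, the averaged log2 difference was -0.89 (SE 0.17, adjusted p = 1.08e-05, edgeR). The difference in slope did not pass the test in that fit (0.09 log2 per hour). Its p-values are not comparable with those of the filtered fit. For *ZNF598* the averaged difference had an adjusted p of 2.94e-268 without the filter and 1.17e-18 with it (edgeR). The *CCND1* difference is therefore given as a description of few counts. Of the exon bases of *CCND1*, 11.7% overlap *LTO1* on the other strand. The study names a stranded library kit, but how strand entered the counting is not given in the sources used here. *LTO1* itself moved the opposite way, with an averaged log2 difference of 0.33 (SE 0.077, adjusted p = 0.00336, edgeR).

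*CCND3* (ENST00000372991.8, chr6:41934952-41941808, minus strand), the other D-type cyclin followed here, fell in shControl, while its fall in shZNF598 and the difference in slope between the hairpins did not pass the test (adjusted p = 0.0558 and 0.704, edgeR). The shControl libraries had 11.7 and 14.1 CPM at 0 h, 11.6 and 11.3 at 2 h, 11.1 and 9.61 at 4 h, 9.81 and 10.5 at 6 h, and 7.49 and 7.42 at 10 h. The shZNF598 libraries had 12.3 and 13.2, 11.7 and 11.2, 12.6 and 11.1, 10.8 and 13.2, and 8.95 and 11.1 CPM at those times. The hairpins overlapped up to 4 h and separated at 6 and 10 h, where both shZNF598 libraries were higher. At 10 h, 57.8% of the 0 h level was left in shControl and 78.6% in shZNF598.

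*CCNE1* (ENST00000262643.8, chr19:29811991-29824312, plus strand), which activates CDK2 at the start of S phase, fell earliest of the members and did not keep falling. Levels in the shControl libraries were 6.13 and 7.19 CPM at 0 h, 3.65 and 3.8 at 2 h, 1.27 and 1.84 at 4 h, 1.86 and 1.72 at 6 h, and 2.88 and 2.4 at 10 h. Those in the shZNF598 libraries were 6.69 and 7.39, 4.19 and 3.94, 1.85 and 2.08, 1.97 and 1.99, and 2.71 and 3.05 CPM. Both shZNF598 libraries were higher at 2, 4 and 6 h, and the hairpins overlapped at 0 and 10 h. No share of all transcripts is given for this separation, and the averaged difference of *CCNE1* was not called. In both hairpins the lowest values came at 4 to 6 h and those of 10 h lay above them. At 4 h, 23.4% of the 0 h level remained in shControl and 27.9% in shZNF598, and at 10 h 39.7% and 41.0%.

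*CCNE2* (ENST00000520509.5, chr8:94879770-94896678, minus strand), the second E-type cyclin, stayed level for 2 h and then fell throughout. The shControl libraries had 9.61 and 9.43 CPM at 0 h, 9.8 and 9.48 at 2 h, 4.63 and 6.16 at 4 h, 3.65 and 3.17 at 6 h, and 1.59 and 1.83 at 10 h. The shZNF598 libraries had 11.9 and 10.8, 11.8 and 11.4, 6.44 and 7.33, 4.85 and 3.64, and 2.75 and 2.39 CPM. Both shZNF598 libraries were above both shControl libraries at 4 of 5 times, for which no share of all transcripts is given. The hairpins came closest at 6 h, where 3.64 CPM overlapped the shControl value of 3.65. Of the exon bases of this transcript 48.9% overlap *INTS8* on the other strand. *INTS8* had a slope of opposite sign (0.12 log2 per hour in shControl, SE 0.017) and a lower averaged level in shZNF598 (-0.19, SE 0.048, adjusted p = 0.00589, edgeR). The *CCNE2* transcript ENST00000396133.7, with 9.77% of its exon bases in the overlap, had an averaged difference of 0.33 (adjusted p = 0.00336, edgeR). ENST00000524224.5, with 0 bases in the overlap and a mean count of 83.7, had 0.31 (adjusted p = 0.0293, edgeR). Its slope in shControl was -0.23 log2 per hour. Reads of these transcripts are partly the same.

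*CCNA2* (ENST00000274026.10, chr4:121816444-121823883, minus strand), the cyclin of S and G2, fell smoothly in both hairpins. The shControl libraries had 43.2 and 45.6 CPM at 0 h, 42.0 and 43.7 at 2 h, 29.6 and 32.1 at 4 h, 22.3 and 22.8 at 6 h, and 13.4 and 13.9 at 10 h. The shZNF598 libraries had 43.1 and 42.1, 37.8 and 38.3, 27.8 and 27.6, 20.9 and 18.7, and 12.6 and 12.8 CPM. Both shZNF598 libraries were below both shControl libraries at each of the 5 times, by a small margin throughout, as were 2.44% of all transcripts tested. It overlaps *EXOSC9* on the other strand in 9.24% of its exon bases, and *EXOSC9* had an averaged difference of 0.03 (SE 0.051).

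The B-type cyclins, partners of CDK1 in mitosis, differed from each other in when they fell. *CCNB1* (ENST00000256442.10, chr5:69167150-69178245, plus strand) had 46.1 and 54.7 CPM in shControl at 0 h, 51.6 and 54.1 at 2 h, 45.2 and 48.6 at 4 h, 37.0 and 36.3 at 6 h, and 23.7 and 25.1 at 10 h. In shZNF598 it had 51.9 and 59.2, 52.3 and 48.7, 45.0 and 45.6, 35.8 and 37.0, and 27.2 and 29.8 CPM. The hairpins overlapped at every time but 10 h, where both shZNF598 libraries were higher. *CCNB2* (ENST00000288207.7, chr15:59105146-59125045, plus strand) had 17.2 and 17.8 CPM in shControl at 0 h, 18.1 and 18.3 at 2 h, 18.9 and 19.9 at 4 h, 19.0 and 20.9 at 6 h, and 8.63 and 9.51 at 10 h. In shZNF598 it had 19.1 and 18.9, 19.2 and 20.3, 18.8 and 19.9, 20.5 and 19.9, and 10.3 and 9.57 CPM. Both shZNF598 libraries were higher at 0, 2 and 10 h, by little, for which no share of all transcripts is given. Its level at 6 h was 114% of the 0 h level in shControl and 106% in shZNF598, and at 10 h it was 51.8% and 52.4%.

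*CCNF* (ENST00000397066.9, chr16:2429447-2458854, plus strand), whose protein directs ubiquitination of cell-cycle proteins in G2, fell over the first 4 h. In shControl, the libraries had 22.5 and 29.3 CPM at 0 h, 19.9 and 21.0 at 2 h, 16.9 and 16.3 at 4 h, 13.7 and 14.5 at 6 h, and 12.2 and 11.7 at 10 h. In shZNF598, the libraries had 23.9 and 23.1, 19.97 and 16.9, 13.8 and 13.8, 13.1 and 14.2, and 12.4 and 15.4 CPM. The hairpins separated in opposite directions at 4 h (shZNF598 lower) and 10 h (shZNF598 higher), and the shControl 0 h libraries lay farther apart than any other pair. At 4, 6 and 10 h, 64.2%, 54.5% and 46.2% of the 0 h level was left in shControl, and 58.6%, 58.0% and 59.0% in shZNF598.

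*CDC20* (ENST00000372462.1, chr1:43359013-43363203, plus strand), the mitotic activator of the APC/C, was the flattest member. In shControl, the libraries had 22.3 and 28.1 CPM at 0 h, 21.1 and 22.2 at 2 h, 24.3 and 21.6 at 4 h, 20.02 and 21.2 at 6 h, and 17.8 and 17.1 at 10 h. In shZNF598, the libraries had 24.2 and 25.5, 21.7 and 19.6, 22.9 and 22.6, 18.4 and 22.8, and 21.0 and 24.8 CPM. Only at 10 h did the hairpins not overlap, with 69.3% of the 0 h level left in shControl and 92.3% in shZNF598.

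*PLK1* (ENST00000300093.9, chr16:23678889-23690367, plus strand), the mitotic kinase, began lower and ended higher in shZNF598. The shControl libraries had 17.7 and 17.8 CPM at 0 h, 13.7 and 14.2 at 2 h, 14.2 and 13.6 at 4 h, 10.5 and 9.97 at 6 h, and 8.16 and 7.04 at 10 h. The shZNF598 libraries had 16.1 and 14.7, 14.0 and 13.5, 13.7 and 13.0, 9.78 and 12.1, and 8.48 and 10.2 CPM. The order of the hairpins at 0 h was thus reversed at 10 h, and they overlapped at the 3 times between. Neither the difference at 0 h (-0.21, adjusted p = 0.573, edgeR) nor that in slope (0.05 log2 per hour, adjusted p = 0.624, edgeR) passed the test.

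Averaged over the 5 times, 3 of the 9 members tested differed between the hairpins, while 22.4% of all 79513 transcripts tested did (12.3% higher and 10.1% lower). *CCNE2* had a log2 difference of 0.35 (SE 0.068, adjusted p = 0.000542, quasi-likelihood test of edgeR, adjusted over all transcripts), and *CCND3* rose by 0.17 (SE 0.058, adjusted p = 0.0371). *CCNA2* fell by 0.14 (SE 0.042, adjusted p = 0.0224). The remaining 6 were not called, with log2 differences from -0.08 for *CCNF* to 0.16 for *CCNE1* (adjusted p = 0.113), and the median of the 9 was 0.06 beside 0.02 over 10725 genes. The call of *CCNE2* held when any 1 of the 20 libraries was left out (0.31 to 0.40). That of *CCNA2* was lost without shZNF598 0 h replicate 2, shControl 2 h replicate 2 or shControl 4 h replicate 2, and without the filter on low counts. That of *CCND3* was lost in 12 of 20 such fits, and under scaling by library totals only. Those 12 left out shControl 0 h replicate 1, either shControl library of 2 h or of 10 h, shControl 4 h replicate 2, shControl 6 h replicate 1, shZNF598 0 h replicate 2, shZNF598 2 h or 4 h replicate 1, or shZNF598 6 h or 10 h replicate 2. Without shZNF598 0 h replicate 2 or shControl 2 h replicate 2, 1 member was called, and without shControl 4 h replicate 2 *CCNE1* was called too (0.22).

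**Figure D2:**
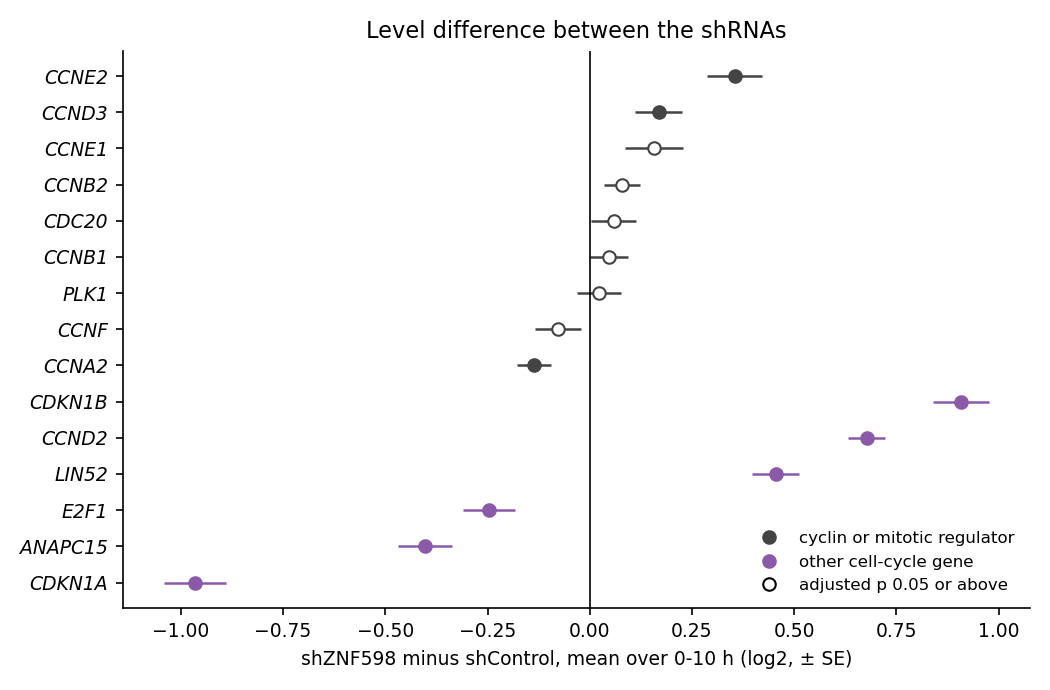
Difference in level between shZNF598 and shControl, averaged over 0 to 10 h (log2, bars give the standard error), for the 9 members tested and for 6 other cell-cycle genes, with filled points where the adjusted p was below 0.05. The members lie between -0.14 and 0.35, while *CDKN1B*, *CCND2* and *CDKN1A* lie farther from 0.

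At 0 h, before any chase, 0 of the 9 members differed between the hairpins by edgeR, 0 had an unadjusted p below 0.05, and DESeq2 also called 0, with 0.407% of all transcripts called. The log2 differences ranged from -0.21 for *PLK1* (SE 0.12) to 0.25 for *CCNE2* (SE 0.14), with a median of -0.01 beside 0.02 over all genes. With standard errors of 0.093 to 0.14, differences of the size seen for *CCNE2* were not detectable at this time alone.

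Over 0-10 h, all 9 members tested fell relative to the bulk in shControl, where 40.8% of all transcripts had a slope called below 0. The slopes were -0.27 log2 per hour for *CCNE2* (SE 0.024, adjusted p = 3.35e-09, edgeR), -0.18 for *CCNA2* (SE 0.012) and -0.14 for *CCNE1* (SE 0.047). They were -0.12 for *PLK1*, -0.11 for *CCNB1* and *CCNF*, -0.08 for *CCNB2*, -0.07 for *CCND3* and -0.05 for *CDC20* (SE 0.014, adjusted p = 0.00301, edgeR). The median of the 9 was -0.11, beside -0.06 over 10725 genes. The 40.8% is a share of transcripts of all types, whose median slope was nearer to 0 (-0.018). The share over genes alone, which the members would be set against, is not given here.

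In shZNF598, 7 of the 9 fell relative to the bulk, where 38.5% of all transcripts did. The slopes of the 7 were -0.24 for *CCNE2* (SE 0.023), -0.18 for *CCNA2*, -0.13 for *CCNE1*, -0.10 for *CCNB1*, -0.08 for *CCNB2* and -0.07 for *CCNF* and *PLK1*. *CCND3* (-0.03, SE 0.013, adjusted p = 0.0558) and *CDC20* (-0.01, SE 0.013, adjusted p = 0.634, edgeR) were not called, although both were under scaling by library totals only or with a filter of 5 CPM. The median was -0.08 beside -0.05 over all genes and -0.014 over transcripts of all types, and the share over genes alone is again not given. The slope of *CCNB2* rested on the last time, and its call was lost without either 10 h library of the hairpin in question, in both hairpins. That of *CCNE1* rested on the first, and was lost in shControl without 0 h replicate 2, in shZNF598 without either 0 h library, and in both by DESeq2 or when all libraries of 0 h were left out. *CCND3* in shZNF598 was called in 5 of the 20 fits that left out 1 library, namely either shControl 0 h library or replicate 2 of shZNF598 at 2, 6 or 10 h.

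**Figure D3:**
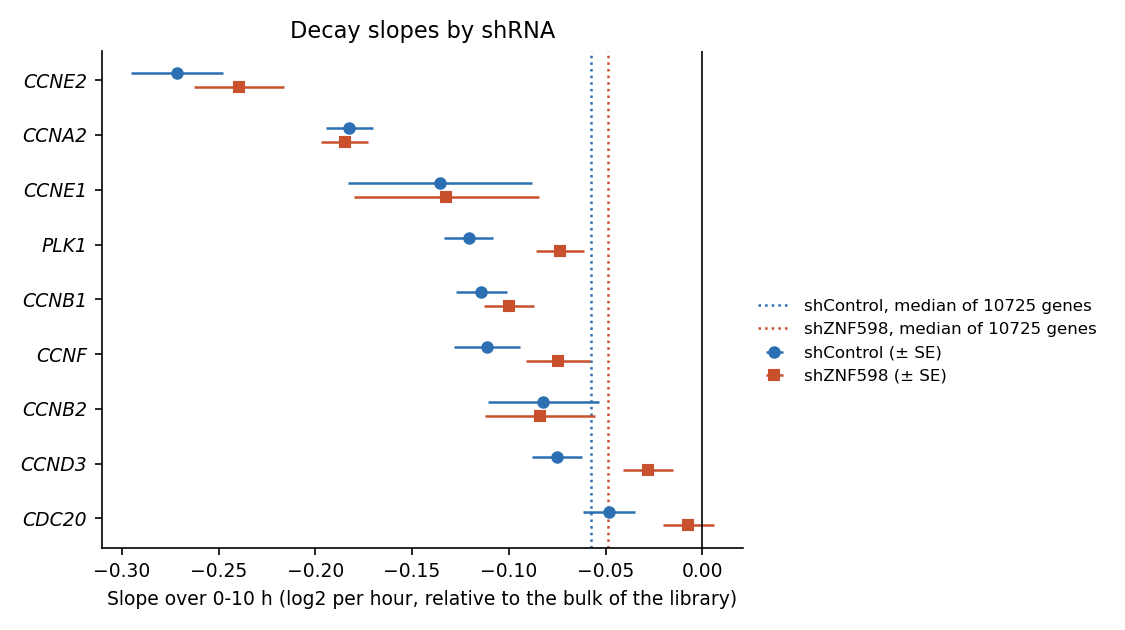
Slope of each member over 0 to 10 h (log2 per hour relative to the bulk, bars give the standard error) in shControl and shZNF598, with dotted lines at the median of 10725 genes in each hairpin. *CCNE2* and *CCNA2* have the most negative slopes in both hairpins, and *CCND3* and *CDC20* lie nearest to 0.

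The order of the members was compared through the ratio of neighbours within a library, which does not depend on the scaling. Of 16 neighbouring pairs over both hairpins, 4 differed (two-sided permutation test over 10 libraries, 100000 resamples, adjusted over the 16). *CCNE2* fell faster than *CCNA2* in shControl (adjusted p = 0.00608, permutation test) and in shZNF598 (adjusted p = 0.0367, permutation test). *CCND3* fell faster than *CDC20* in shControl (adjusted p = 0.0367, permutation test), and *PLK1* faster than *CCND3* in shZNF598 (adjusted p = 0.0293, permutation test). In the other 12 pairs, among them those that link *CCNA2*, *CCNE1*, *PLK1*, *CCNB1*, *CCNF* and *CCNB2*, neighbours did not differ beyond their spread.

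The difference in slope between the hairpins, the question of the design, was not called for any of the 9 members by edgeR or DESeq2, and 0.116% of all transcripts were called. By edgeR, 3 members had an unadjusted p below 0.05, a threshold for which no share of all transcripts is given here. Their differences were 0.05 log2 per hour for *PLK1* (SE 0.017, adjusted p = 0.624), 0.05 for *CCND3* (SE 0.018, adjusted p = 0.704) and 0.04 for *CDC20* (SE 0.019, adjusted p = 0.861). The difference was positive, meaning a shallower fall in shZNF598, in 7 of 9 members, with a median of 0.03 beside 0.00 over all genes. The quartiles over 10725 genes were -0.013 and 0.020, and the share of all genes with a positive difference is not given here. *CCNA2* (-0.0024), *CCNB2* (-0.0018) and *CCNE1* (0.0032) were nearest to 0, and the signs of these 3 changed when single libraries were left out.

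A straight line does not describe every member, so the change over each interval, averaged over the hairpins, was added after the levels had been seen. From 0 to 2 h, 3 of 9 members fell, where 9.0% of all transcripts did. These were *CCNE1* by 0.82 in log2 terms (SE 0.10, adjusted p = 2.43e-06, edgeR), *CCNF* by 0.34 (SE 0.086) and *PLK1* by 0.26 (SE 0.082, adjusted p = 0.0388). *PLK1* lost its call in 8 of 20 fits without 1 library, namely without shControl 0 h replicate 2, either shZNF598 0 h library, any of the 4 libraries of 2 h or shZNF598 4 h replicate 2. *CCNF* lost it without shControl 0 h replicate 2, shControl 2 h replicate 1 or shZNF598 2 h replicate 2, and 1 member was then called. From 2 to 4 h, 4 members fell, where 24.5% of all transcripts did, *CCNE1* by 1.16 (SE 0.11), *CCNE2* by 0.80, *CCNA2* by 0.47 and *CCNF* by 0.36. *CCNE1* thus had the largest fall of the 9 members in each of the first 2 intervals. *CCNB1* (-0.17, adjusted p = 0.0607, edgeR) was called from 2 to 4 h without either shControl 0 h library, and *CDC20* (-0.24, adjusted p = 0.0667) from 0 to 2 h without shControl 0 h replicate 1 or either shZNF598 library of 6 h.

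From 4 to 6 h, 4 members fell, where 26.3% of all transcripts did, namely *CCNE2* by 0.68, *CCNA2* by 0.47, *PLK1* by 0.36 and *CCNB1* by 0.34, and *CDC20* was called too without shZNF598 6 h replicate 2 (-0.23). From 6 to 10 h, 6 members fell, where 27.7% of all transcripts did, and 1 rose, where 32.1% did. *CCNB2* had the steepest fall of this interval (-1.08, SE 0.073, adjusted p = 6.3e-11, edgeR), after no call in any earlier one. *CCNE2* fell by 0.86, *CCNA2* by 0.68, *CCNB1* by 0.47, *CCND3* by 0.35 and *PLK1* by 0.33. *CCNE1* rose by 0.55 (SE 0.12, adjusted p = 0.000373, edgeR). Under scaling by library totals only, which moves the median of all transcripts in this interval by -0.38, *CCNE1* changed by 0.17 and was not called. Falls of *CCNF* (-0.49, adjusted p = 2.4e-05, edgeR) and *CDC20* (-0.43, adjusted p = 8.6e-05, edgeR) were then called in addition. Both were also called from 4 to 6 h under that scaling (-0.29 and -0.31). The B-type cyclins thus held most of their fall in the later part of the chase, and over 0-6 h alone the slope of *CCNB2* in shControl was 0.03 log2 per hour, above 0.

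**Figure D4:**
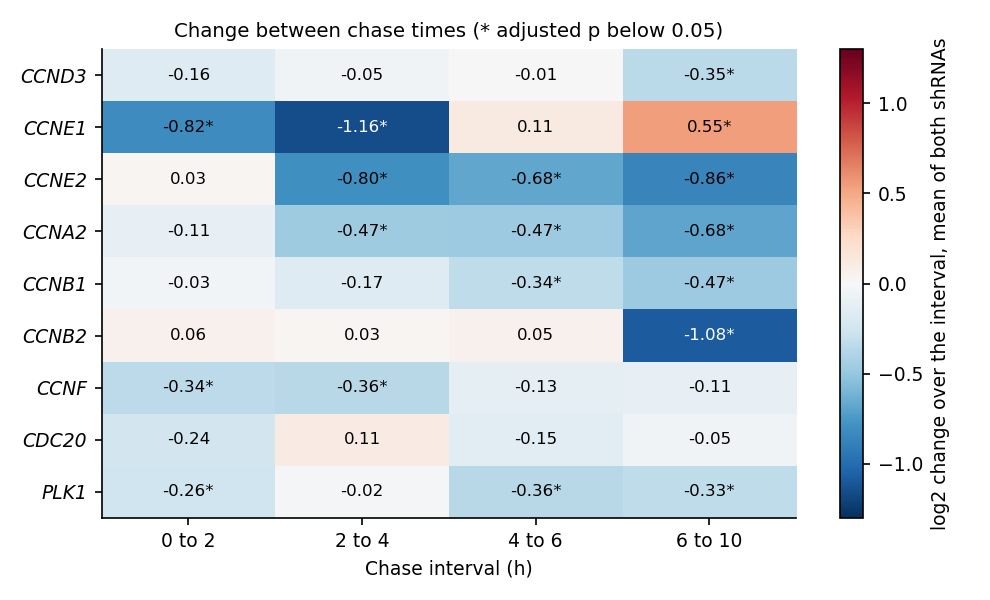
Change of each member between successive chase times (log2, mean over both hairpins), with the value written in each cell and an asterisk where the adjusted p was below 0.05. *CCNE1* has its large falls in the first 2 intervals and a rise in the last, while *CCNB2* has a single fall of -1.08 in the last.

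At 24 h there was 1 library per hairpin, so no test was made. In shControl, 9 of 10 members lay above both 10 h libraries, all but *CCND3*, where 50.6% of all transcripts did. In shZNF598 8 of 10 did, all but *CCND1* and *CCND3*, where 50.0% of all transcripts did. *CCNB1* had 85.4 CPM at 24 h in shControl, 3.60-fold its mean at 10 h, and 73.0 CPM in shZNF598, 2.66-fold. *CCNA2* had 28.2 and 20.8 CPM and *CCNF* 23.9 and 25.6 CPM in shControl and shZNF598. *CCND3* stayed low, with 6.08 and 7.64 CPM, and *CCNE2* remained at 20.7% and 31.6% of its 0 h level. *CCNB1*, *CDC20* and the scarce *CCND1* were above their own 0 h means in both hairpins at 24 h. These values rest on the 2 shallowest libraries (21220829 counts in shControl and 40157613 in shZNF598).

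**Figure D5:**
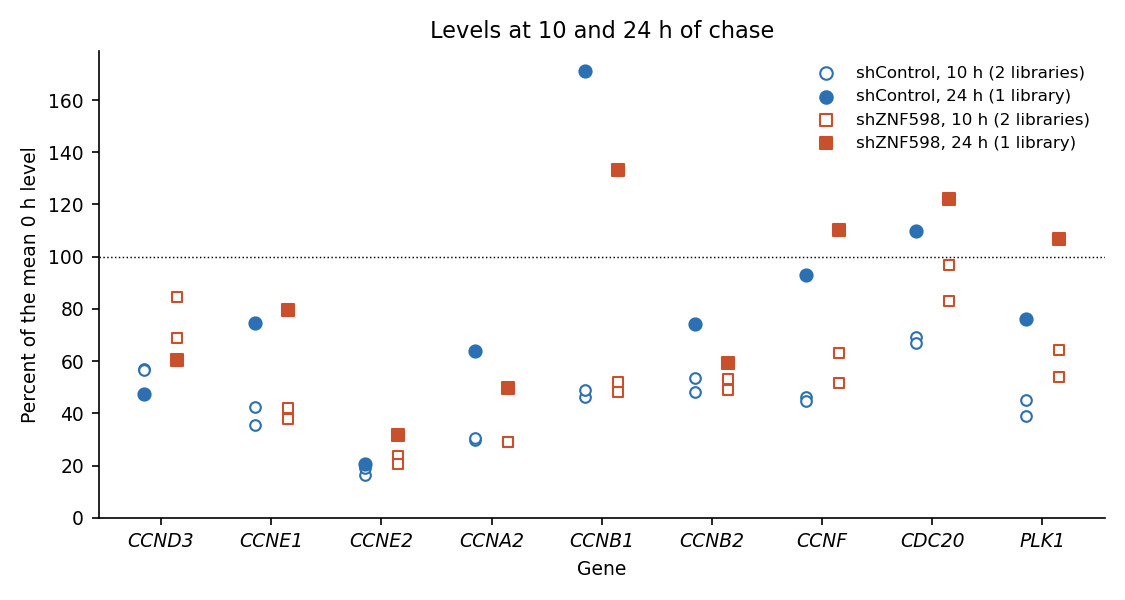
Level at 10 h (open points, 2 libraries) and 24 h (filled points, 1 library) as a percent of the mean 0 h level of the same hairpin, for the 9 members tested, with all 22 libraries scaled together. *CCNB1* reaches 171% in shControl and 133% in shZNF598 at 24 h, while *CCND3* lies below its 10 h values in both.

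Other transcripts of the same genes share reads with those above, so they are no independent measure. The members have 75 rows, of which 36 protein-coding ones were tested. For *CCNE2*, 4 of 4 had a higher averaged level (0.31 to 0.35), and for *CCND3* all 12 were positive and 7 called. For *CCNE1*, 1 of 5 was called higher, and for *PLK1* the sign differed between its 3 transcripts (-0.03 to 0.02). Slopes in shControl were called below 0 for all of these transcripts.

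Other genes of the cell cycle were taken from 10 lists of 108 genes, of which 101 were tested. Averaged over 0-10 h, 17 were higher and 8 lower in shZNF598, where 12.3% and 10.1% of all transcripts were. The CDK inhibitors held the extremes in both directions. *CDKN1B*, which encodes p27, rose by 0.91 (SE 0.068, adjusted p = 4.6e-10, edgeR), and *CDKN1A*, which encodes p21, fell by 0.97 (SE 0.075, adjusted p = 9.19e-10). *CDKN1B* fell from a mean of 9.43 CPM at 0 h to 1.35 CPM at 4 h in shControl and from 14.7 to 2.53 CPM in shZNF598. *CDKN1A* stood at 19.1 CPM at 0 h in shControl against 11.0 CPM in shZNF598. *CCND2*, the third D-type cyclin, rose by 0.68 (SE 0.046), from 33.6 CPM at 0 h in shControl to 50.9 CPM in shZNF598. The sign of its averaged difference was that of *CCND3* and opposite to that of *CCND1*. Unlike *CCND2*, *CCND3* did not differ at 0 h (-0.01, SE 0.13), and its averaged call was lost in 12 of 20 fits without 1 library. *CCND1* had only 7 to 39 counts per library and did not pass the filter. *LIN52*, a subunit of the DREAM complex, rose by 0.45, while the APC/C subunit *ANAPC15* fell by 0.40 and the transcription factor *E2F1* by 0.25 on the log2 scale.

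At 0 h, where 0.407% of all transcripts were called, 3 of the 101 were higher (*LIN52* and *CDKN1B* both by 0.64, *CCND2* by 0.60) and 1 was lower (*CDKN1A* by 0.80 on the log2 scale, adjusted p = 0.0135, edgeR). These calls fell to 0 when shZNF598 0 h replicate 1 or replicate 2 was left out, and to 2 without shControl 0 h replicate 1. Slopes were called below 0 for 66 of 101 in shControl and 62 in shZNF598, where 40.8% and 38.5% of all transcripts were, and above 0 for 17 and 16, while 33.5% and 32.7% of all transcripts were. These shares are over transcripts of all types, and those over genes alone are not given here. Of the 11 tested mitotic kinases and partners, 10 were below 0 in shControl, with a median slope of -0.14. Of the 9 spindle checkpoint genes, 3 were above 0 and 4 below, with a median of 0.00. *FBXO5*, an inhibitor of the APC/C, had the most negative slope of the lists (-0.30 in shControl and -0.33 in shZNF598), followed in shControl by *CDKN2C* and *CCNJ* (-0.26 and -0.25) and in shZNF598 by *E2F5* and *CCNJ* (both -0.26). *CDKN2A*, which encodes p16 and p14ARF, had the highest (0.21 and 0.22), with *SKP1* (0.17 and 0.13) and, in one hairpin each, *RBX1* (0.16 in shControl) and *UBE2S* (0.14 in shZNF598) next. No difference in slope was called for any of the 101 by edgeR or DESeq2. By edgeR 6 had an unadjusted p below 0.05, with no share of all transcripts at that threshold given here.

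The genes whose levels followed the members most closely over the 20 libraries were found by Pearson correlation among 4255 genes that averaged 10 CPM or more, where libraries share chase time and depth. *RCC1* (r = 0.988), *ICMT* (0.985) and *GORASP1* (0.983) were most like the mean of the 6 genes of G2 and mitosis. Pairs of those 6 correlated at 0.324 (*CCNB2* and *CDC20*) to 0.957 (*CCNA2* and *CCNB1*), so the mean blends unlike patterns. *FBXO28* (0.991), *CCNT1* (0.987) and *POGK* (0.987) were most like the mean of the E-type cyclins. *CCNE1* and *CCNE2* themselves correlated at 0.616, so likeness to their mean is not likeness to either gene alone. *SH3GL1* (0.926), *TUBB3* (0.917) and *ELK1* (0.917) were most like *CCND3*, and *MOGS* (0.883), *IMPDH1* (0.742) and *MXD4* (0.718) most like *CCND1*, whose low counts leave its pattern the least sure.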

How the data were processed

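BRIC-Seq was done on HEK293T cells, with 22 libraries in 12 groups. Per the labels and the study's methods, the authors trimmed the reads, removed those of noncoding RNA, aligned the rest with STAR 2.7.0a to hg38 (1 mismatch, 1 locus per read) and counted reads per transcript of GENCODE release 32. The deposited values are raw counts per transcript, 1 file per library, beside the transcript length in codons (an annotation value, unit other). Reads overlapping several isoforms count in each. Gene names came from GENCODE release 44, which shares the build and matched 92.2% of identifiers with their version and 98.4% without, *CCND1* and *CCND3* among the latter. The unmatched ones held 2.22% of counts.

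Transcripts averaging 1 CPM or more in the 20 libraries of 0-10 h were fitted in edgeR 4.0.16 (R 4.3.3) with TMM scaling and the quasi-likelihood test, adjusted by Benjamini-Hochberg over all 79513. One model had a mean per group, the other hairpin, hours and their product, and all libraries shared 1 estimate of the spread. The SE is the log2 value over the square root of F. The order of slopes used log2 of the count plus 0.5 and scipy 1.17.1. The 24 h libraries entered only values and 1 alternative. Spike-in counts were not used here. In no group did replicates agree within sampling noise, so none were merged. The functions were tested on simulated data. The members tested rested on 86 to 4774 counts per library.

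The members, the pathway lists and the motifs were chosen with earlier results of these data known. Named pathway genes were up to 3 per direction with the largest called value for levels, the 3 highest and 3 lowest slopes, and the 3 genes most correlated with each pattern. Alternatives covered scaling, filters, DESeq2 1.42.0, 1 row per gene, the replicate block, left-out libraries and chase windows. Interval changes were added after seeing the data. Motifs were searched in 3′ UTRs of GENCODE release 44, and miRNAs came from RefSeq (GRCh38.p14).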

Additional observations from a re-analysis of the deposited data

How the results depend on the processing

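The count of members called for the averaged level was 1 to 3 when libraries were left out, for the level at 0 h 0, for the slope 6 to 9 in shControl and 4 to 8 in shZNF598, and for the slope difference 0. Interval counts were then 1 to 4 (0 to 2 h), 4 to 5 (2 to 4 h), 4 to 5 (4 to 6 h) and 7 (6 to 10 h). Counts over the pathway lists were 20 to 33, 0 to 6, 61 to 85, 58 to 82 and 0 for the averaged level, 0 h, both slopes and the slope difference, and the *ZNF598* level was -3.11 to -3.00. The lowest member counts of the slopes came from fits with 1 library per group.

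The chase window moved the slope counts most. Over 0-24 h, 2 members were called in shControl and 2 in shZNF598, and 26 and 23 pathway genes. Over 0-4 h, 4 members were called in shZNF598, and 48 and 49 pathway genes. Over 0-6 h, 7 neighbouring pairs in the order of slopes differed. The 4 libraries of 0 h alone gave 0 pathway genes at 0 h. The 0-24 h window adds the 2 libraries of 24 h, the others use fewer libraries, and the cause of the moves was not tested.

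Signs turned for small values. In shControl, slopes over 0-24 h were 0.020 for *CCNB1* and 0.0026 for *CDC20*, and those of *CCNB2* were 0.031 over 0-4 h and 0.034 over 0-6 h (adjusted p = 0.048 by edgeR, with 0.000625 to 0.339 over its alternatives). In shZNF598, slopes over 0-24 h were 0.010 for *CCNB1*, 0.0069 for *CCNF* and 0.014 for *CDC20*, those of *CCNB2* were 0.0099 over 0-4 h and 0.013 over 0-6 h, and *CDC20* gave 0.0023 with DESeq2 size factors, 0.0022 by DESeq2 and 0.0043 over 2-10 h. Slope differences turned to 0.0047, 0.0019 and 0.0052 for *CCNA2* and 0.0047, 0.0024 and 0.0034 for *CCNB2* (library totals, a filter of 5 CPM, and 2-10 h), to -0.038, -0.021 and -0.0098 for *CCNB1* (0-4, 0-6 and 0-24 h), to -0.0063 for *CCNE1* (2-10 h) and to -0.024 for *CCNF* (0-4 h). Without a filter, the 0 h differences were 0.0066 for *CCND3* and 0.00054 for *CDC20*. Interval changes turned for *CCNB1* (0.031 without a filter and 0.0043 with 1 row per gene) and *CCNE2* (-0.0090 at 5 CPM) from 0 to 2 h. From 2 to 4 h they turned for *CCNB2* (-0.057 under library totals, -0.078 at 5 CPM), *CCND3* (0.018 with 1 row per gene) and *PLK1* (0.010 with size factors, 0.015 without a filter, 0.010 by DESeq2, 0.045 with 1 row per gene). From 4 to 6 h they turned for *CCNB2* (-0.11 under library totals, -0.0093 at 5 CPM), *CCND3* (0.0062 without a filter, 0.028 with 1 row per gene) and *CCNE1* (-0.048 under library totals), and from 6 to 10 h for *CDC20* (0.037 with size factors, 0.036 by DESeq2). Of these, only the *CCNB2* slope over 0-6 h in shControl was called.

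When libraries were left out, further small values turned, each given by its range over those fits. The averaged level difference of *PLK1* was -0.011 to 0.051. The 0 h differences were -0.15 to 0.12 for *CCND3*, -0.039 to 0.20 for *CCNE1*, -0.32 to 0.067 for *CCNF* and -0.19 to 0.16 for *CDC20*. The slope of *CDC20* in shZNF598 was -0.022 to 0.0071, and in the fits without 1 library at most 0.00063. Slope differences were -0.0075 to 0.0062 for *CCNA2*, -0.036 to 0.025 for *CCNB2* (0.011 without replicate 2 of every group), -0.037 to 0.055 for *CCNE1* and -0.0046 to 0.075 for *CCNF*. Interval changes were -0.088 to 0.030 for *CCNB1* and -0.0080 to 0.061 for *CCNE2* from 0 to 2 h, -0.0043 to 0.050 for *CCNB2* and -0.10 to 0.0043 for *CCND3* from 2 to 4 h, -0.081 to 0.062 for *CCND3* and -0.0085 to 0.26 for *CCNE1* from 4 to 6 h, and -0.12 to 0.039 for *CDC20* from 6 to 10 h.

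Of 682 single-member values under other alternatives, 602 kept direction and side of the threshold, 24 lost a call, 14 gained one and 42 turned. Of 1694 with libraries left out, 1595 kept both, 43 lost a call, 13 gained one and 43 turned. Library totals only moved the median of all transcripts by -0.16 from 4 to 6 h and -0.38 from 6 to 10 h.

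Replicate numbers gave no steady pairing of the libraries over the chase times, and whether same-numbered libraries shared a batch at single times was not tested. The correlation of same-numbered deviations was -0.0068, 0.13, 0.37, 0.32 and -0.25 at 0, 2, 4, 6 and 10 h. With the replicate block, 3 members were called for the averaged level, and *CCNB1* from 2 to 4 h (-0.17) was called in addition. Depth limits *CCND1* most, with 7 to 39 counts per library.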
